A study of Homo sapiens with 12 samples.

Results

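The genes described here are 7 cyclin-dependent kinase inhibitor genes, *CDKN1A*, *CDKN1B*, *CDKN1C*, *CDKN2B*, *CDKN2C*, *CDKN2D* and *CDKN3*. *CDKN2A* is not in this set. They were taken by gene name from the deposited count table of each cell line, one of 30984 genes and one of 78691 genes, and all 7 are listed in both. Cyclin-dependent kinases (CDKs) bind cyclins and drive the cell from one phase of its cycle to the next, and these inhibitors are the brakes on them. The Cip/Kip proteins p21 (*CDKN1A*), p27 (*CDKN1B*) and p57 (*CDKN1C*) bind cyclin-CDK complexes, chiefly those of CDK2. The INK4 proteins p15 (*CDKN2B*), p18 (*CDKN2C*) and p19 (*CDKN2D*) bind CDK4 and CDK6 and keep D cyclins away, and *CDKN3* encodes a phosphatase that removes the activating phosphate of CDK2 and CDK1.

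The study asked how tumor cells respond to PTDSS1i, the small-molecule inhibitor DS55980254 of PTDSS1, which makes phosphatidylserine. Poly-A RNA was sequenced from 12 wild-type cultures in 4 groups of 3, collected after 48 h. The groups were KYSE30, an esophageal squamous cell carcinoma line, given DMSO as vehicle or 100 nM PTDSS1i, and U138MG, labelled as glioblastoma, given DMSO or 100 nM PTDSS1i. Each is an established cell line, its libraries form a labelled batch of their own, and line and batch therefore cannot be told apart.

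Total counts ran from 18800932 to 26514658 per library. Replicates varied by a biological coefficient of variation of 0.0549 in KYSE30 and 0.0452 in U138MG, and every replicate pair differed by more than sampling noise (chi-square per degree of freedom 2.289 to 7.437). The label U138MG was not borne out by its defining markers. Of 9 squamous and epithelial markers, 7 were above 1 CPM (reads of a gene scaled to a common library total) in those DMSO libraries, with *KRT5* at 1380 to 1544 CPM and *TP63* at 271 to 284 CPM. Of 11 glial and mesenchymal markers 6 were above 1 CPM there, summing to 814 to 837 CPM over the list, of which *SPARC* gave 699 to 725 CPM and *SOX2* 37.6 to 41.1 CPM. The glial genes *S100B* and *OLIG2* had 0 counts, *GFAP* lay at 2.15 to 2.51 CPM and *VIM* at 0.157 to 0.281 CPM. The growth protocol attached to these cultures also names KYSE30 cells. They are therefore called the libraries labelled U138MG. Their summed epithelial markers lay between 6995 and 7813 CPM in DMSO and between 1773 and 1896 CPM in PTDSS1i, and the glial and mesenchymal sum under PTDSS1i was 418 to 433 CPM. *KRT15* alone gave 4500 to 5145 CPM of the epithelial sum in DMSO and 409 to 484 CPM in PTDSS1i. The epithelial markers did not all fall: of 8 tested there, 5 were lower and 3 higher at an adjusted p under 0.05 by edgeR. The part of these shifts in the results on the inhibitor genes was not tested. KYSE30 also had 7 of the 9 markers above 1 CPM, with *CDH1* at 493 to 542 CPM and *TP63* at 89.6 to 103.1 CPM in DMSO, but *KRT5* at 0 to 0.133 CPM. The same sum there was 1054 to 1159 CPM in DMSO and 1211 to 1239 CPM in PTDSS1i, and the glial and mesenchymal sum was 131 to 135 CPM and 144 to 149 CPM. The PTDSS1i comparison in KYSE30 was fitted without the other libraries.

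PTDSS1i moved these genes in different directions rather than as a family. *CDKN1A* rose in both lines, *CDKN2C* and *CDKN3* fell in both, and *CDKN1B* was not called in either. *CDKN2B* and *CDKN1C* rose in KYSE30, and *CDKN2D* rose in KYSE30 and fell in the libraries labelled U138MG. A gene was called when the adjusted p of edgeR's quasi-likelihood test was under 0.05. In KYSE30, 4 of the 7 genes rose, 2 fell and 1 was not called, beside 62.0% of all 16389 genes tested that were called, 30.1% higher and 32.0% lower. Among the libraries labelled U138MG, 6 of the 7 passed the filter on low counts. Of these 6, 1 rose, 3 fell and 2 were not called, beside 67.5% of 17666 genes, 33.9% higher and 33.6% lower. Within each line most tested genes were called, so a call by itself does not set an inhibitor gene apart. With a log2 fold change beyond 1 as well, 3 genes were higher and 2 lower of 7 in KYSE30, beside 13.4% of all genes, 6.40% higher and 7.04% lower. By this rule none was higher and 2 were lower of 6 in the libraries labelled U138MG, beside 19.8%, 8.19% higher and 11.6% lower. For all 7 genes in KYSE30, and for 4 of 6 in the other libraries, no treated library overlapped the DMSO libraries, beside 66.3% and 71.4% of all genes. The median log2 fold change was 0.81 over the 7 genes in KYSE30 and -0.26 over the 6 tested in the libraries labelled U138MG, where all tested genes had -0.025 and -0.026.

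**Figure D1:**
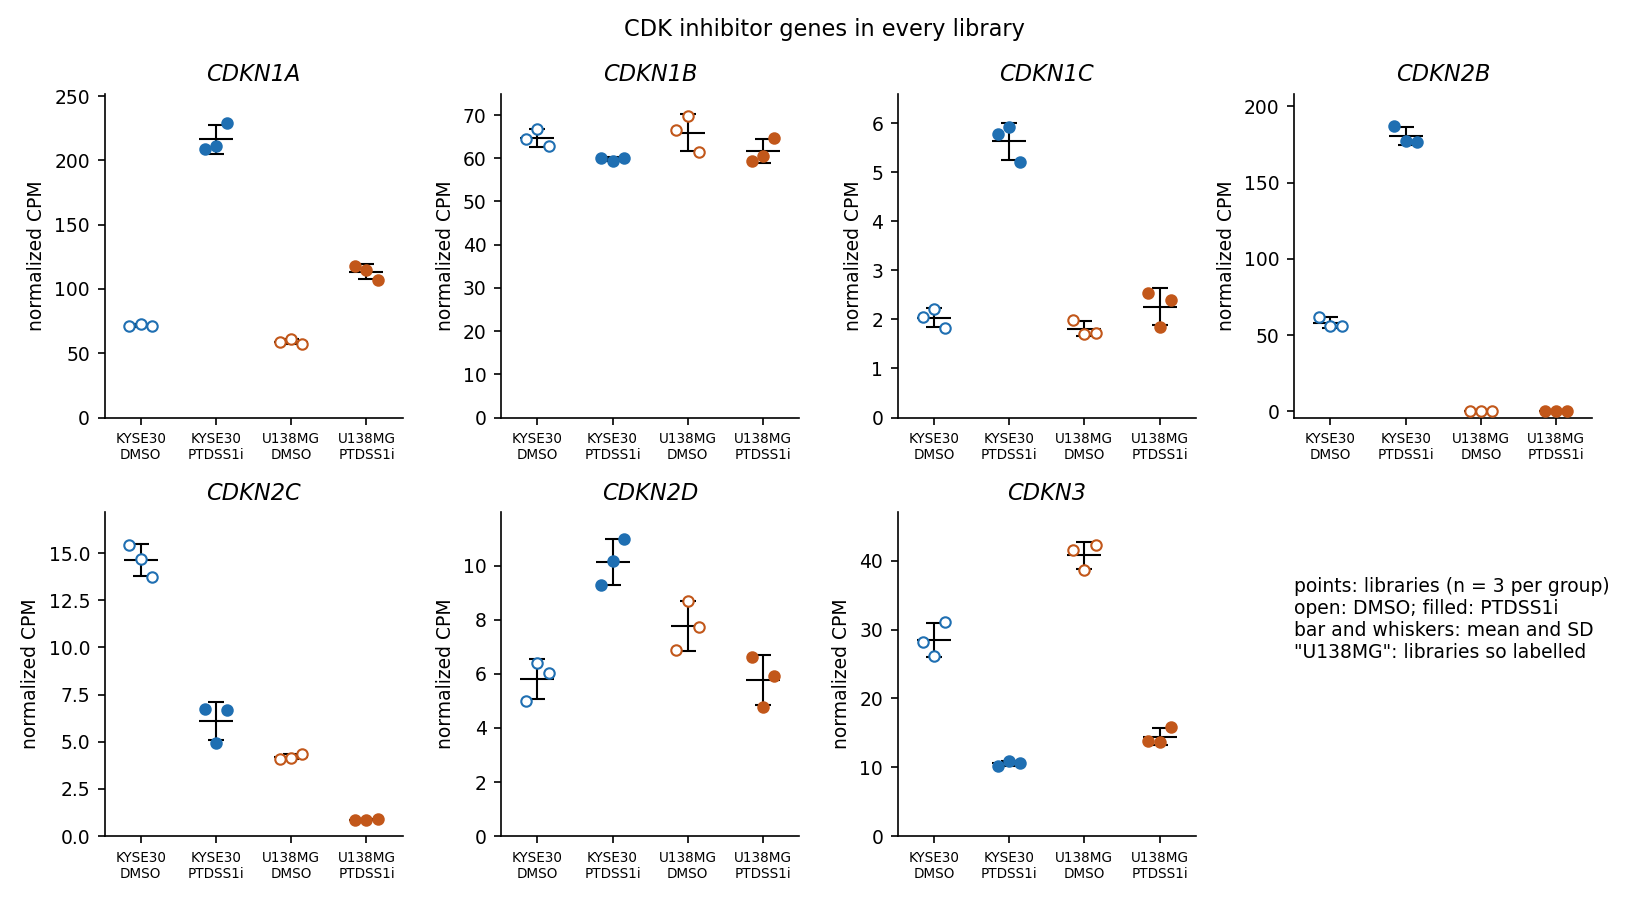
Normalized CPM (vertical axis, from 0) of each of the 7 genes in every library, with DMSO as open and PTDSS1i as filled points, KYSE30 in blue and the libraries labelled U138MG in orange, and the mean and SD of 3 libraries as bar and whiskers. *CDKN1A* stands higher under PTDSS1i in both lines, *CDKN2C* and *CDKN3* stand lower in both, and *CDKN2B* is at 0 in all 6 libraries labelled U138MG.

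The promoters of the genes that moved alike in both lines are shown to put the letters beside the values. RefSeq's GRCh38.p14 table held a promoter entry for 6 of the 7 genes, and the 250 bases before each start were searched on both strands. The motifs were the GC box GGGCGG, read by Sp1-type factors, the E2F motif in the forms TTGGCGC or TTCGCGC or TTCCCGC or TTGCCGC, the CHR element TTTGAA of late cell cycle genes, and the E-box CACGTG. Among 35116 windows of the same length, 42.6% held a GC box, 10.9% an E2F motif, 13.3% a CHR and 6.34% an E-box. Capitals below mark matches on either strand, and neighbouring GC boxes can overlap each other.
CDKN1A promoter, chr6:36678464-36678713, plus strand: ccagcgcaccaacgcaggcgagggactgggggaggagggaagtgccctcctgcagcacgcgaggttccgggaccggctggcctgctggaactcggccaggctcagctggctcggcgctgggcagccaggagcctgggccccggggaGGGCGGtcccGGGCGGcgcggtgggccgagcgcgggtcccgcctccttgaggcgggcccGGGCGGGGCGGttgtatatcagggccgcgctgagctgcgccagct
CDKN2C promoter, chr1:50968456-50968705, plus strand: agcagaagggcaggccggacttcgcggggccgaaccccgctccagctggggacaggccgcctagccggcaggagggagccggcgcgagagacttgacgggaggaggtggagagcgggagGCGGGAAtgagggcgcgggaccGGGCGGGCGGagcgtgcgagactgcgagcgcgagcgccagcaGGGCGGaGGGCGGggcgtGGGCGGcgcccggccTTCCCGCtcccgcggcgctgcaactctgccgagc
CDKN3 promoter, chr14:54396757-54397006, plus strand: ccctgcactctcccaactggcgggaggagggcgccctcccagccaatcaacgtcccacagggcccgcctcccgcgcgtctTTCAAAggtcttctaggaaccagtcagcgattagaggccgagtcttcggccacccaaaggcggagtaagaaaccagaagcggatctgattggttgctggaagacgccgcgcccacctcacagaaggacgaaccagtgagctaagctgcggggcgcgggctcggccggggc
The *CDKN1A* window held 4 GC boxes, starting 104, 94, 45 and 40 bases before the start, and no other motif of the set. The *CDKN2C* window, the second of 3 listed for that gene, held 2 E2F motifs, at 131 and 34 bases, and 5 GC boxes between 109 and 49 bases. It was printed because it holds the E2F motifs, and of the other windows the first held 1 E-box and the third 1 E-box and 1 GC box, with no E2F motif in either. The *CDKN3* window held a CHR at 170 bases and none of the others. *CDKN1B* had 1 GC box, *CDKN2B* 2 and *CDKN2D* 2, without an E2F motif or a CHR. A match describes the letters and was not tested as a site.

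*CDKN1A* encodes p21, the inhibitor best known as a target of p53. It lies on GRCh38 chromosome 6 at 36676460-36687339 on the plus strand. In KYSE30 its normalized CPM, which is CPM after TMM scaling between libraries, was 71.0, 72.9 and 71.2 in DMSO and 209, 211 and 229 in PTDSS1i. The means were 71.7 ± 1.05 and 216 ± 11.1 (SD, n = 3), a log2 fold change of 1.59 (SE 0.053, adjusted p = 2.82e-16). Those labelled U138MG had 58.7, 61.1 and 57.4 in DMSO and 118, 115 and 107 in PTDSS1i. Every treated library thus lay above every DMSO library in both lines, as for 32.1% and 35.5% of all tested genes. The same holds downward for 34.2% and 35.9%. The second change was smaller, from 59.1 ± 1.91 to 113 ± 5.72 (SD, n = 3), with a log2 fold change of 0.94 (SE 0.045, adjusted p = 5.73e-17). Of the gene's exon bases, 4.79% overlap *DINOL*, a noncoding gene on the other strand, in GENCODE 29. Strand use in counting was not given in the sources used here, so reads of these bases cannot be told apart.

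*CDKN1B* encodes p27, which is controlled largely by destruction of the protein. It lies on chromosome 12 at 12715058-12722371. The KYSE30 libraries had 64.6, 66.8 and 62.8 normalized CPM in DMSO and 60.2, 59.3 and 60.1 in PTDSS1i. These groups did not overlap, yet the log2 fold change of -0.11 was not called (SE 0.054, 95% interval -0.22 to 0.0022, adjusted p = 0.0824). Cultures labelled U138MG had 66.5, 69.9 and 61.5 in DMSO and 59.4, 60.6 and 64.8 in PTDSS1i, which overlap. Their log2 fold change was -0.097 (SE 0.051, 95% interval -0.20 to 0.0066, adjusted p = 0.0909). These intervals leave room for a small fall and almost none for a rise. The call turned with the scaling: with library totals alone the gene was called lower in both lines, at -0.22 in KYSE30 (adjusted p = 0.00200) and -0.24 in the libraries labelled U138MG (adjusted p = 0.000107). That scaling moved the median of all genes by -0.10 and -0.15. Without DMSO replicate 3 or without PTDSS1i replicate 3 of the libraries labelled U138MG, *CDKN1B* was also called lower, at -0.14 (adjusted p = 0.0241) and -0.13 (adjusted p = 0.0412).

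*CDKN1C* encodes p57, an imprinted gene that is read mainly from the maternal chromosome. It lies on chromosome 11 at 2883213-2885773 on the minus strand. It was scarce in every library, with 39 to 126 counts. In KYSE30 it went from 2.05, 2.22 and 1.83 normalized CPM in DMSO to 5.78, 5.91 and 5.20 in PTDSS1i, with no overlap. The means were 2.03 ± 0.196 and 5.63 ± 0.378 (SD, n = 3), and the log2 fold change was 1.47 (SE 0.16, adjusted p = 4.15e-08). The libraries labelled U138MG had 2.00, 1.71 and 1.73 in DMSO and 2.54, 1.84 and 2.40 in PTDSS1i, where the lowest treated library lay below the highest DMSO library. The log2 fold change there was 0.32 (SE 0.23, 95% interval -0.16 to 0.80, adjusted p = 0.225), so at 39 to 60 counts per library the interval spans both no change and a rise of 0.80.

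*CDKN2B* encodes p15, an INK4 protein known as a target of TGF-beta signaling. It lies on chromosome 9 at 22002903-22009363 on the minus strand. KYSE30 had 62.2, 56.1 and 55.8 normalized CPM in DMSO and 187, 178 and 176 in PTDSS1i. The groups lay far apart, with means of 58.0 ± 3.61 and 180.4 ± 5.99 (SD, n = 3). The log2 fold change of 1.64 (SE 0.056, adjusted p = 3.84e-16) was the largest of the 7 genes in that line, with *CDKN1A* just below it. In contrast, all 6 libraries labelled U138MG held 0 counts of *CDKN2B*, which allows up to 3 counts or 0.113 to 0.157 CPM per library, and the gene was not tested there.

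Genes listed on either side of *CDKN2B* were read for that reason, in CPM of the library total. *CDKN2A* was not among the genes read. *CDKN2B-AS1*, the noncoding gene that spans it at 21994778-22121097, and *DMRTA1*, at 22446841-22455740 and 437.5 kb away, also had 0 counts in all 6 libraries labelled U138MG. *MTAP*, an enzyme of methionine salvage at 21802543-21937651 and 65.25 kb away on the other side, had 67.1 ± 1.92 CPM with DMSO and 83.7 ± 1.62 CPM with the inhibitor (SD over 3 libraries). *KLHL9*, at 21329671-21335380 and 667.5 kb away beyond *MTAP*, had 52.9 ± 3.37 and 47.0 ± 1.82 CPM. Among the genes read, those with no counts were thus neighbours. *MTAP* and *KLHL9*, both to one side of them, were measured at 47.0 CPM or more. KYSE30 had counts for all 4, with DMSO means of 5.96 CPM for *CDKN2B-AS1*, 2.70 for *DMRTA1*, 51.8 for *MTAP* and 36.5 for *KLHL9*. *CDKN2B-AS1* was at 4.49 CPM under PTDSS1i, where *CDKN2B* was higher. In normalized CPM the treated and DMSO libraries of *CDKN2B-AS1* overlapped in KYSE30. By edgeR's test it was not called there (log2 fold change -0.31, adjusted p = 0.0936). The exons of *CDKN2B-AS1* do not overlap those of *CDKN2B* in GENCODE 29. Whether the DNA of the segment is present was not tested.

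*CDKN2C* encodes p18, whose transcript is known to rise as cells enter S phase. It lies on chromosome 1 at 50960745-50974633. In KYSE30 it fell from 15.4, 14.7 and 13.7 normalized CPM in DMSO to 6.71, 4.94 and 6.69 in PTDSS1i. The log2 fold change was -1.25 (SE 0.11, adjusted p = 4.25e-09). Those labelled U138MG started lower, at 4.09, 4.14 and 4.35, and fell to 0.878, 0.829 and 0.918. Each of these treated libraries held 18 to 23 counts, and the groups were far apart in both lines. Here the log2 fold change was -2.25 (SE 0.23, adjusted p = 8.34e-10), the largest change of any of the 7 genes in either line.

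*CDKN2D* encodes p19, an INK4 protein whose amount is known to vary over the cell cycle. It lies on chromosome 19 at 10566462-10569059 on the minus strand, and it was the gene whose direction differed between the lines. KYSE30 had 4.98, 6.40 and 6.04 normalized CPM in DMSO and 9.28, 10.2 and 11.0 in PTDSS1i. It rose by a log2 fold change of 0.81 (SE 0.12, adjusted p = 4.67e-06). The libraries labelled U138MG had 6.89, 8.71 and 7.72 in DMSO and 6.63, 4.79 and 5.91 in PTDSS1i. The groups did not overlap, although PTDSS1i replicate 1 came close to DMSO replicate 1. The log2 fold change was -0.43 (SE 0.14, adjusted p = 0.00787). This call was lost without DMSO replicate 2 (-0.34, adjusted p = 0.0637) and without PTDSS1i replicate 2 (-0.30, adjusted p = 0.0718).

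*CDKN3*, the phosphatase, is a gene of dividing cells. It lies on chromosome 14 at 54396849-54420218. KYSE30 had 28.2, 26.1 and 31.1 normalized CPM in DMSO and 10.2, 10.9 and 10.7 in PTDSS1i. The libraries labelled U138MG had 41.6, 38.6 and 42.3 in DMSO and 13.8, 13.6 and 15.9 in PTDSS1i. Every treated library lay well below every DMSO library. The log2 fold changes were -1.43 (SE 0.085, adjusted p = 3.11e-12) in KYSE30 and -1.50 (SE 0.073, adjusted p = 9.46e-17) in the libraries labelled U138MG.

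**Figure D2:**
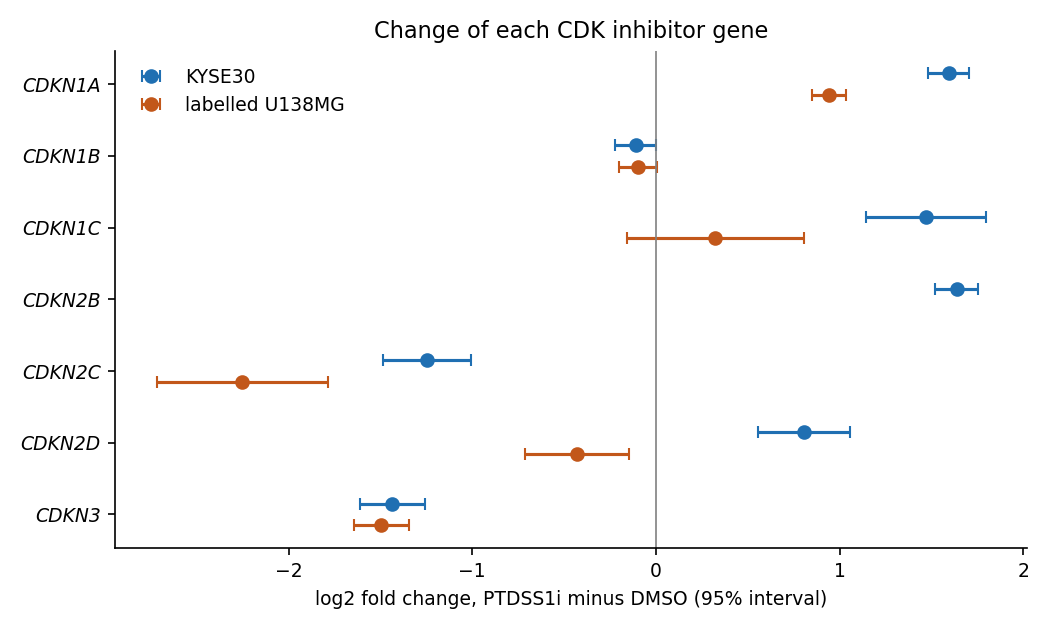
Log2 fold change of PTDSS1i minus DMSO (horizontal axis) for each gene in KYSE30 (blue) and in the libraries labelled U138MG (orange), with 95% intervals from edgeR. *CDKN2D* lies at 0.81 and -0.43 on opposite sides of 0, *CDKN1B* lies near 0 in both lines, and *CDKN2B* has a value in KYSE30 only because it had 0 counts in the other libraries.

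The change was then compared between the lines as the interaction of line and treatment, given for 6 genes. *CDKN2B* was left out because it had no counts in the libraries labelled U138MG. The share over all genes leaves out no gene on that ground. Of all 18405 genes in that test 49.9% were called, 25.5% higher and 24.4% lower in the libraries labelled U138MG. Of the 6 inhibitor genes 4 were called, all with the lower log2 fold change in the libraries labelled U138MG. The difference, U138MG minus KYSE30, was -0.69 for *CDKN1A* (SE 0.069, adjusted p = 5.49e-10) and -1.18 for *CDKN1C* (SE 0.26, adjusted p = 0.000345). For *CDKN1A* this is a smaller rise. *CDKN2C* differed by -1.04 (SE 0.23, adjusted p = 0.000340), a deeper fall, and *CDKN2D* by -1.28 (SE 0.19, adjusted p = 7.79e-07), a change of direction. *CDKN1B* differed by -0.026 (95% interval -0.18 to 0.13, adjusted p = 0.828) and *CDKN3* by -0.10 (95% interval -0.34 to 0.14, adjusted p = 0.510). Line and batch are the same split, so the differences belong to both.

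The levels of the genes were compared with each other per kilobase of exon, using merged exon lengths of GENCODE 29 on GRCh38, which are not known to be the annotation of the authors. In KYSE30 with DMSO, *CDKN1A* (23.5 ± 0.346 normalized CPM per kb) and *CDKN1B* (23.0 ± 0.72) stood at the top with overlapping libraries. *CDKN3* (15.5 ± 1.37) and *CDKN2B* (14.3 ± 0.891) overlapped next, then *CDKN2C* (4.41 ± 0.258) and *CDKN2D* (3.87 ± 0.490), and *CDKN1C* came last at 0.821 ± 0.0789 (SD, n = 3 for each). Under PTDSS1i the order changed to *CDKN1A* (70.9 ± 3.65), *CDKN2B* (44.4 ± 1.48), *CDKN1B* (21.3 ± 0.170), *CDKN2D* (6.75 ± 0.568), *CDKN3* (5.75 ± 0.195), *CDKN1C* (2.27 ± 0.153) and *CDKN2C* (1.84 ± 0.305), and no neighbours in this order overlapped. *CDKN2C* thus went from the fifth place to the last.

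Among the libraries labelled U138MG with DMSO, *CDKN1B* (23.5 ± 1.51 normalized CPM per kb) and *CDKN3* (22.2 ± 1.07) overlapped at the top. *CDKN1A* (19.4 ± 0.625), *CDKN2D* (5.17 ± 0.608), *CDKN2C* (1.26 ± 0.0407) and *CDKN1C* (0.731 ± 0.0648) followed without overlap, and *CDKN2B* was at 0. With PTDSS1i, *CDKN1A* led at 37.2 ± 1.88, before *CDKN1B* (21.9 ± 0.999), *CDKN3* (7.87 ± 0.684), *CDKN2D* (3.84 ± 0.616), *CDKN1C* (0.912 ± 0.150) and *CDKN2C* (0.264 ± 0.0135). *CDKN1A* was thus the most abundant inhibitor transcript of the 7 under PTDSS1i in both lines. The summed level of the 7 genes went from 85.4 ± 0.246 to 153.3 ± 3.47 normalized CPM per kb in KYSE30, and was 72.2 ± 1.41 and 72.0 ± 1.09 in the libraries labelled U138MG. The share of this sum held by *CDKN1A* was 27.5% ± 0.456 in DMSO and 46.3% ± 1.41 in PTDSS1i in KYSE30, and 26.8% ± 0.353 and 51.7% ± 2.51 in the libraries labelled U138MG (SD, n = 3). In bulk cultures, fewer cells that express a gene and less of its RNA per cell cannot be told apart.

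**Figure D3:**
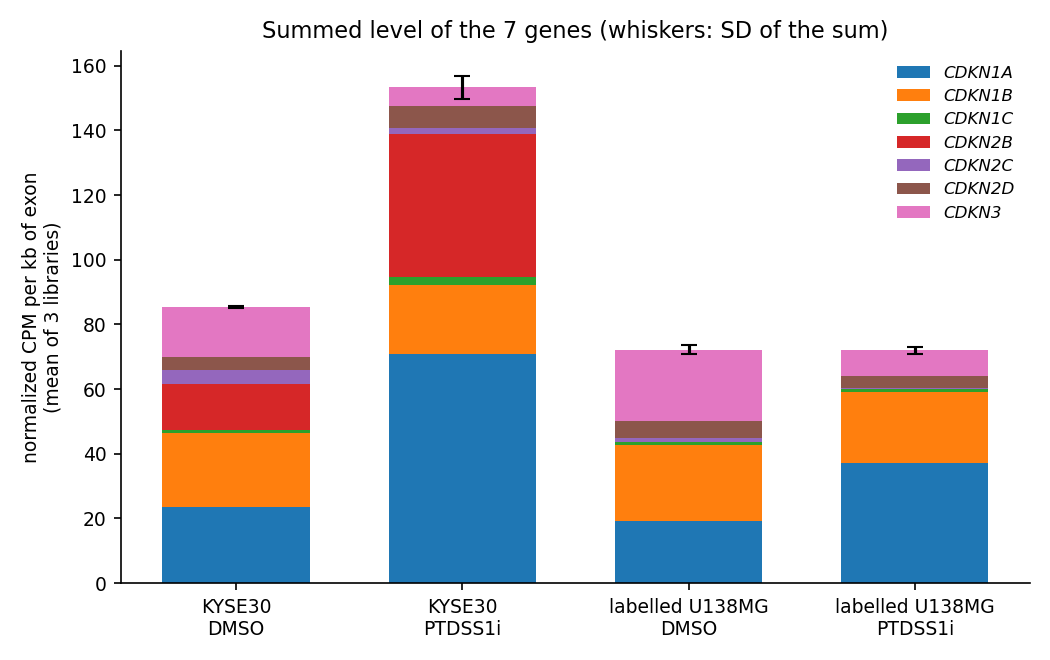
Stacked mean levels of the 7 genes (normalized CPM per kb of exon, from 0) in the 4 groups, with the SD of the sum over 3 libraries as whiskers. The sum stands at 85.4 and 153.3 in KYSE30 and at 72.2 and 72.0 in the libraries labelled U138MG, where the larger *CDKN1A* layer stands beside a smaller *CDKN3* layer.

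The kinases and cyclins that these inhibitors act on were listed as 13 genes. Over all tested genes, 30.1% rose and 32.0% fell in KYSE30, and 33.9% rose and 33.6% fell in the libraries labelled U138MG. In KYSE30, 11 were tested, of which 9 fell, none rose and 2 were not called, with a median log2 fold change of -1.03. The largest falls were those of *CCNE2* (-1.87, SE 0.096), *CCNA2* (-1.70, SE 0.061) and *CCNB1* (-1.53, SE 0.055), cyclins of S phase entry, S phase and mitosis. *CDKN2C* and *CDKN3* fell alongside these genes while *CDKN1A* and *CDKN2B* rose. In the libraries labelled U138MG, 12 were tested, of which 7 fell, 4 rose and 1 was not called, with a median of -0.21. *CCNB2* (-1.77, SE 0.065), *CCNB1* (-1.63, SE 0.051) and *CCNA2* (-1.55, SE 0.062) fell most. The 4 that rose, named after their values were seen, were *CCND1* (1.29), *CCND2* (2.60), *CCNE1* (0.52) and *CDK6* (0.19). *CCND2* was scarce, at 0.796 normalized CPM in DMSO and 4.89 in PTDSS1i, where *CCND1* had 375 and 915. *CCND1*, *CCND2* and *CDK6* encode partners in the complexes that the INK4 proteins block, as do *CDK4* and *CCND3*. In these libraries *CDK4* was called lower (-0.22, SE 0.039) and *CCND3* was not called (-0.11), so these partners moved in mixed directions.

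Parts of the ubiquitin ligases that destroy p21, p27 and p57 were listed as 12 genes, all tested in both lines. In KYSE30, 6 fell, 2 rose and 4 were not called (median log2 fold change -0.18). In the libraries labelled U138MG 5 fell, 3 rose and 4 were not called (median -0.052). The share called was near that over all genes, 62.0% and 67.5%, and does not set this list apart. *DTL*, which brings p21 to the CUL4 ligase, went from 77.2 ± 4.37 to 18.0 ± 0.959 normalized CPM in KYSE30, a log2 fold change of -2.10 (SE 0.067). *PCNA*, the clamp on which *DTL* meets p21, changed by -1.64 (SE 0.053) there and *CDC20* by -1.57 (SE 0.074). *SKP2*, which brings p27 to its ligase, went from 107 ± 1.90 to 58.0 ± 2.08 in the libraries labelled U138MG (-0.88, SE 0.043), beside *CDC20* (-1.70, SE 0.048) and *PCNA* (-0.43, SE 0.085). *SKP2* also fell in KYSE30 (-1.48, SE 0.055), and *DTL* also fell in the libraries labelled U138MG (-0.30, SE 0.069). These are transcripts, and the amounts of the p21 and p27 proteins were not measured here.

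Transcription factors known to act on the inhibitor genes were listed as 18 genes, to be read beside the 62.0% and 67.5% of all genes called in the 2 lines. In KYSE30, 10 rose, 6 fell and 2 were not called (median log2 fold change 0.29), and in the libraries labelled U138MG 9 rose, 4 fell and 5 were not called (median 0.19). *ATF3*, a stress factor, rose in both, from 14.5 ± 0.824 to 63.7 ± 3.50 normalized CPM in KYSE30 (2.13, SE 0.070) and from 10.8 ± 0.105 to 99.5 ± 2.57 in the libraries labelled U138MG (3.20, SE 0.056). *KLF6*, an activator of *CDKN1A*, rose by 2.11 (SE 0.061) in KYSE30, where *E2F1*, the factor of S phase genes, changed by -1.62 (SE 0.063). *CEBPB* rose by 1.34 (SE 0.034) and *CEBPA* changed by -1.55 (SE 0.076) in the libraries labelled U138MG. The direction was thus mixed within this list, as it was among the inhibitors.

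Other known targets of p53 numbered 22, all tested. Of all genes, 62.0% were called in KYSE30 and 67.5% in the libraries labelled U138MG. In KYSE30, 12 rose, 7 fell and 3 were not called (median log2 fold change 0.42), and in the libraries labelled U138MG 14 rose and 8 fell (median 0.44). *GDF15*, a stress-induced secreted factor, rose by 3.71 (SE 0.075) in KYSE30 and 6.79 (SE 0.056) in the libraries labelled U138MG. *TP53INP1* (2.32, SE 0.14) and *TIGAR* (1.25, SE 0.14) followed in KYSE30, and *PLK3* (3.06, SE 0.16) and *BBC3* (2.10, SE 0.063) in the other libraries, where *TP53INP1* was called lower (-0.75). *TIGAR* also rose in the libraries labelled U138MG (1.63), and *PLK3* (1.11) and *BBC3* (0.97) also rose in KYSE30. Those that fell in both lines include *DDB2* (-0.88 and -1.10) and *FDXR* (-0.79 and -1.26), named after their values were seen. *CDKN1A*, which belongs to the same family of targets, lay at 1.59 and 0.94.

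TGF-beta response genes numbered 12, all tested, of which 7 rose and 5 fell in KYSE30 (median log2 fold change 0.30). In the libraries labelled U138MG 8 rose, 3 fell and 1 was not called (median 0.59). The calls over all genes were 62.0% and 67.5%. *BHLHE40*, a repressor of transcription, rose by 1.54 (SE 0.051) in KYSE30 and 2.57 (SE 0.088) in the libraries labelled U138MG. *CCN2*, a matrix-associated growth factor, changed by -1.28 (SE 0.060) in KYSE30 and 0.80 in the libraries labelled U138MG. *PMEPA1*, a feedback gene of the pathway, changed by -0.58 in KYSE30 and rose by 1.99 (SE 0.086) in the libraries labelled U138MG, so both were called in opposite directions. *CDKN2B*, the inhibitor tied to this pathway, rose by 1.64 in KYSE30 and had no counts in the others.

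G1/S and G2/M genes mostly fell, in lists chosen with earlier results of these data known. Of all tested genes, 32.0% fell in KYSE30 and 33.6% in the libraries labelled U138MG. All 13 G2/M genes fell in both lines, with medians of -1.49 and -1.65. Examples are *KIF20A*, a kinesin of cell division (-1.73, SE 0.054, and -2.34, SE 0.053), *CDCA3* (-1.71, SE 0.072, and -2.30, SE 0.094) and *CENPF*, a centromere protein (-2.22, SE 0.39, and -2.93, SE 0.21). *CDKN3*, at -1.43 and -1.50, lay near these medians. The 13 G1/S genes all fell in KYSE30 (median -1.85), led by *MCM5*, part of the replicative helicase (-2.21, SE 0.058), *E2F2* (-2.01, SE 0.11) and *E2F8* (-1.98, SE 0.11). In the libraries labelled U138MG 10 fell and 3 rose (median -0.72). *E2F8* (-2.06, SE 0.17), *RRM2*, a subunit of ribonucleotide reductase (-1.74, SE 0.12), and *E2F2* (-1.57, SE 0.11) fell most. *E2F7* (0.87), *CDC6* (0.34) and *CDC25A* (0.31), named after their values were seen, rose.

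**Figure D4:**
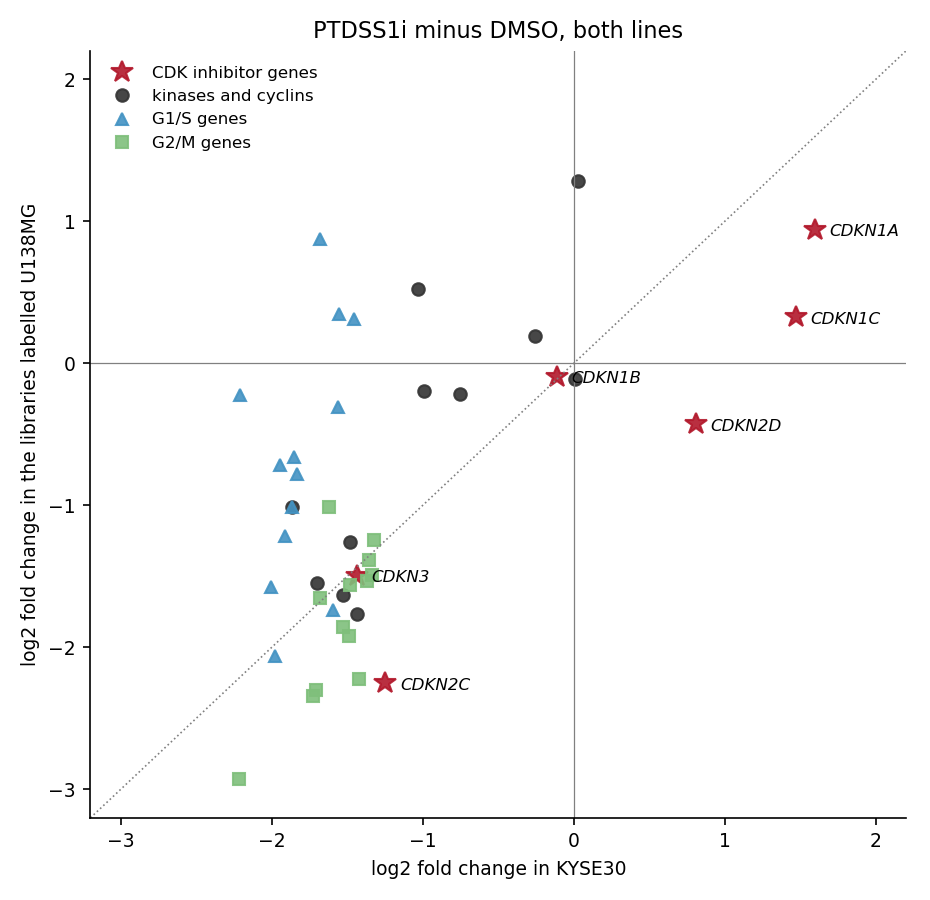
Log2 fold change of PTDSS1i minus DMSO in KYSE30 (horizontal axis) against that in the libraries labelled U138MG (vertical axis) for the 6 inhibitor genes tested in both (stars), kinases and cyclins (circles), G1/S genes (triangles) and G2/M genes (squares), with equal change on the dotted line. *CDKN3* and *CDKN2C* lie among or beside the G2/M genes at the lower left, and *CDKN1A*, *CDKN1C* and *CDKN2D* lie apart on the right.

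The genes whose pattern was most like each member were found by Pearson's r of log2 CPM, centred on the mean of each line, over the 12 libraries and about 10280 genes. These values are descriptions, since the libraries share 2 lines and 2 treatments and a gene that follows the treatment in both lines scores high. *CDKN1A* was nearest to *CHD2* (r = 0.9976) and *B3GNT5* (r = 0.9965), and *CDKN1C* to *ZC3H12A* (r = 0.9893) and *NCKAP5L* (r = 0.9866). *CDKN2C* was nearest to *GTSE1* (r = 0.9945) and *ARHGAP33* (r = 0.9944), and *CDKN3* to *H2AZ2* (r = 0.9976) and *CCNB1* (r = 0.9969). *CDKN2D* was nearest to *XRN1* (r = 0.9722) and *ZC3H10* (r = 0.9639). *CDKN1B*, which moved least, had no close partner, with *PIGV* (r = 0.854) and *MTHFSD* (r = 0.842) at the top. *CDKN2B* was left out because it had no counts in one line. *CCNB1* itself, the mitotic cyclin nearest to *CDKN3*, went from 229 ± 14.4 to 79.2 ± 1.82 normalized CPM in KYSE30 and from 92.2 ± 4.29 to 29.8 ± 1.29 in the libraries labelled U138MG.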

How the data were processed

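Poly-A RNA of 12 cultures was measured by RNA-seq. The authors deposited unnormalized counts of reads for each gene, one table per line. The submitters' processing notes name Trimmomatic, STAR, featureCounts and hg38. The annotation and strand use are not given in the sources used here. Labels gave the group and number of each sample, and all deposited count columns matched a sample (0 unused).

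Tests were run with edgeR 4.0.16 in R 4.3.3. Genes were kept by filterByExpr (minimum count 10, minimum total 15), scaled by TMM and compared within each line by edgeR's quasi-likelihood test in its robust form. P-values were adjusted by Benjamini-Hochberg over all tested genes with a threshold of 0.05. The interaction of line and treatment was tested over the 18405 genes that passed the filter among 30358 listed in both tables. Most-like genes were sought among those with a mean of at least 5 CPM in each line. DESeq2 1.42.0, other scalings, other filters, a replicate block, a non-robust fit, a joint fit of the lines and each library left out were alternatives. The scripts were tested on simulated data. Figures were drawn with Python 3.11.15, pandas 2.3.3 and matplotlib 3.10.9. Lengths, positions and overlaps came from GENCODE 29 (GRCh38), and promoters from RefSeq.

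With totals of 18800932 to 26514658 counts per library, a gene with 0 counts was given the bound of 3 counts, which covers counting error only. The members and the lists were chosen with earlier results of these data known. All 7 members are named. Of every other list, up to 3 called genes with the largest log2 fold change and a mean of at least 5 normalized CPM are named per line, with genes beside a member that had under 1 CPM in a line, and the 2 genes most like each member. A gene that this rule names is not reported here.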

Additional observations from a re-analysis of the deposited data

Results flagged for a closer look

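The treatment effect on 4 inhibitor genes differed between the lines by edgeR's test of the interaction, where 49.9% of all genes tested were called. The log2 difference, U138MG minus KYSE30, was -0.69 for *CDKN1A* (adjusted p = 5.49e-10), -1.18 for *CDKN1C* (adjusted p = 0.000345), -1.04 for *CDKN2C* (adjusted p = 0.000340) and -1.28 for *CDKN2D* (adjusted p = 7.79e-07). *CDKN2D* is the gene among them whose libraries moved in opposite directions. All 4 differences kept their sign and call in the 20 alternative fits, with the *CDKN2D* difference between -1.39 and -1.17. Line, batch and the marker mismatch of the libraries labelled U138MG cannot be told apart in these differences.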

How the results depend on the processing

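Of the log2 fold changes of single inhibitor genes under the alternatives, 305 kept their direction and call, 7 gained a call, 2 lost it and 1 changed sign. The change of sign was the difference of *CDKN1B* between the lines, at 0.019 (adjusted p = 0.903) without DMSO replicate 2 of the libraries labelled U138MG. Leaving out single libraries, it ran from -0.088 to 0.019, and it reached -0.14 with upper-quartile scaling. It was called in none of these. All 7 gains were *CDKN1B* called lower. They include -0.13 in KYSE30 and -0.24 in the libraries labelled U138MG with upper-quartile scaling, and -0.12 in the latter with at least 10 counts in every library. With a log2 fold change beyond 1 as an added rule, 1049 genes were higher and 1154 lower in KYSE30, 1446 and 2048 in the libraries labelled U138MG, and 1245 and 1769 in the difference, beside 4927 and 5238, 5989 and 5930, and 4701 and 4487. *CDKN1A*, at 0.94, then left 0 inhibitor genes higher in the libraries labelled U138MG, where 1 had been. By CPM without length, *CDKN1A* held 29.2% and 44.2% of the summed level in KYSE30 and 32.9% and 57.2% in the libraries labelled U138MG.

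Library totals without scaling lowered the share of higher calls from 48.5% to 37.8% in KYSE30 and from 50.2% to 37.1% in the libraries labelled U138MG, where upper-quartile scaling also gave 37.1%. Upper-quartile scaling lowered it from 51.2% to 41.5% in the difference. The median of all genes moved by -0.15 and -0.10 under upper-quartile scaling in the last 2 comparisons.

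With each library left out in turn, 4527 to 4981 genes were higher and 4773 to 5155 lower in KYSE30, 5771 to 5898 and 5545 to 5718 in the libraries labelled U138MG, and 4354 to 4635 and 4288 to 4583 in the difference. Of the inhibitor genes 4 were higher and 2 lower in KYSE30 each time, 1 was higher and 2 to 4 lower in the libraries labelled U138MG, and 0 were higher and 4 lower in the difference. The lower count of 2 came with the loss of *CDKN2D*.

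With the replicate block, 5081 genes were higher and 5377 lower in KYSE30, 6019 and 5923 in the libraries labelled U138MG, and 4824 and 4615 in the difference, and no inhibitor gene changed its call. The numbers were not taken to pair the samples, since the deviations of same-numbered libraries correlated at 0.020 to 0.075 in KYSE30 and -0.0029 to 0.048 in the libraries labelled U138MG. In KYSE30 every library correlated best with its own number, which is a hint from the data and not from the design. Depth limits *CDKN1C* and *CDKN2C* most, at 39 to 60 and 18 to 98 counts per library in the libraries labelled U138MG.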

Other observations

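The neighbours of *CDKN1C* in its imprinted cluster were among the genes listed beside the members, and are named here after their values were seen. *PHLDA2*, a growth-restraining gene of the placenta, rose from 29.3 to 91.0 normalized CPM in KYSE30, a log2 fold change of 1.63 (adjusted p = 0.000145 by edgeR), and from 1.93 to 36.4 in those labelled U138MG (4.24, adjusted p = 1.71e-23). *SLC22A18*, a transporter, rose from 28.9 to 52.1 (0.85, adjusted p = 2.63e-08) and from 4.02 to 18.1 (2.16, adjusted p = 8.64e-13). In KYSE30 *CDKN1C* rose beside them, at 1.47. *KCNQ1*, also listed there, was scarce at 0.726 and 0.583 normalized CPM in KYSE30 and was not called (-0.28, adjusted p = 0.529). In the libraries labelled U138MG *CDKN1C* was at 0.32 and was not called. *KCNQ1OT1*, the noncoding RNA of the cluster, had 12.1 and 13.7 normalized CPM in the libraries labelled U138MG (0.18, adjusted p = 0.0934). It was not listed among the KYSE30 counts. *PHLDA2*, *SLC22A18* and *CDKN1C* were all under 5 normalized CPM in the DMSO libraries labelled U138MG.

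*SRSF3*, the splicing factor gene that precedes *CDKN1A* on chromosome 6, fell in both lines, by 0.89 on the log2 scale in KYSE30 and 0.86 in the libraries labelled U138MG, while *CDKN1A* rose. *GPR19*, listed beside *CDKN1B* on chromosome 12, also fell in both, by 1.44 and 2.04, while *CDKN1B* was not called. *GPR19* was scarce, going from 1.84 to 0.652 normalized CPM in KYSE30 and from 3.03 to 0.738 in the libraries labelled U138MG. *APOLD1*, also listed beside *CDKN1B*, was called in neither line (adjusted p = 0.469 and 0.0621 by edgeR). *SRSF3* and *GPR19* are named here after their values were seen.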
